A study of Mus musculus with 6 samples.

Results

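The 35 genes described here encode the DNA replication machinery and the enzymes of deoxynucleotide synthesis. They were chosen by name and not by a measured value, though with earlier results of these data known. All 35 were found among the 54446 genes of the normalized count table. The RNA came from B cells of the spleen, taken from *Tent5c* KO mice and from their WT littermates, with 3 libraries of each genotype. The mice were of the mixed C57BL/6J X CBA strain, 12 to 15 weeks old, and the KO animals were bred from heterozygous parents. The naive B cells of both genotypes were isolated by immunomagnetic negative selection and cultured for 7 days with IL-4 (20 ng/ml) and LPS (20 ug/ml), a combination that drives B cells to divide and to become antibody-secreting cells. *Tent5c* encodes a cytoplasmic poly(A) polymerase. A KO and a WT library with the same number, 1 to 3, come from littermates and are called a pair; the labels give the same number as the batch.

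*Tent5c* itself was looked at first, since it bears on the labels. It had 1993, 993 and 1170 normalized counts in KO libraries 1 to 3, and 1255, 767 and 1584 in the WT libraries. Its RNA was thus not lower in the libraries labelled KO (log2 fold change 0.20, 95% interval -0.26 to 0.66, adjusted *p* = 0.970 by limma). The kind of mutation is not given in the labels. Per the methods of the study the KO line was made with a guide RNA and Cas9, and RNA level alone does not check the genotype. Depth was 5393558 to 6793520 fragments on genes per library. All 8 B cell markers passed the filter of a mean of 10 normalized counts, and their summed level was 29794 to 33933 in KO and 28472 to 33026 in WT libraries. Of 8 plasma cell markers, 7 passed, with summed levels of 21735, 13025 and 15863 in KO libraries 1 to 3 and of 17280, 13181 and 26130 in the WT libraries. Markers of other cells were low, as 1 of 10 T cell genes passed (summed level 33.4 to 54.5 in KO and 31.4 to 95.1 in WT), 2 of 10 myeloid genes (20.0 to 131 and 64.8 to 90.3) and 0 of 7 erythroid genes (2.7 to 5.7 and 0 to 5.2). *Fcgr1*, *S100a8*, *S100a9*, *Elane*, *Hba-a1*, *Hba-a2* and *Hbb-bs* were among those at 0 in all 6 libraries.

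Replication begins when the origin recognition complex, with Cdc6 and Cdt1, loads the ring of MCM proteins onto DNA before S phase. Cdc45 and GINS then join the ring to form the active helicase, primase starts each new strand, and polymerases held by the PCNA clamp extend it. Ribonucleotide reductase and thymidylate synthase provide the deoxynucleotides. In quiescent B cells most of these genes are low, and they are switched on through E2F transcription factors when cells enter the cycle.

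The replication machinery was expressed in both genotypes, and no gene of it passed the test of KO against WT. All 35 genes passed the filter, with means over the 6 libraries from 67.8 (*Gins1*) to 2254 (*Mcm6*) normalized counts. In the limma fit of 12322 genes, 0 of the 35 were called higher or lower (smallest adjusted *p* 0.970), against 0% of all genes tested. At an unadjusted *p* under 0.05, 3 were higher in KO, where 1.67% of all genes were, and 0 were lower. The 3 became 2 with edgeR, 1 with DESeq2, 2 without pair 1, 1 without pair 2 and 1 without pair 3. The quasi-likelihood test of edgeR and DESeq2, both on recovered fragments, also called 0 of the 35. In a bulk culture the share of dividing cells and the RNA per dividing cell cannot be told apart.

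The small differences leaned to one side. The median log2 fold change (KO against WT) of the 35 genes was 0.09, a 1.06-fold difference, and that of all genes tested was 0.00067. In all, 30 of the 35 had a log2 fold change above 0, compared with 50.2% of all genes. The number was 32 with TMM scaling and 29 with scaling that leaves out the immunoglobulin genes. It fell to 27 without pair 1, 27 without pair 2 and 28 without pair 3. The KO library was the higher one in all 3 pairs for 15 genes (42.9%), compared with 11.7% of all genes, and the lower one in all 3 pairs for 0 genes, compared with 13.1%. The median of the pair ratios was 1.07-fold in pair 1, 1.07-fold in pair 2 and 1.04-fold in pair 3. Because the 35 genes are known to be expressed together, they are not 35 independent measurements of one difference.

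**Figure D1:**
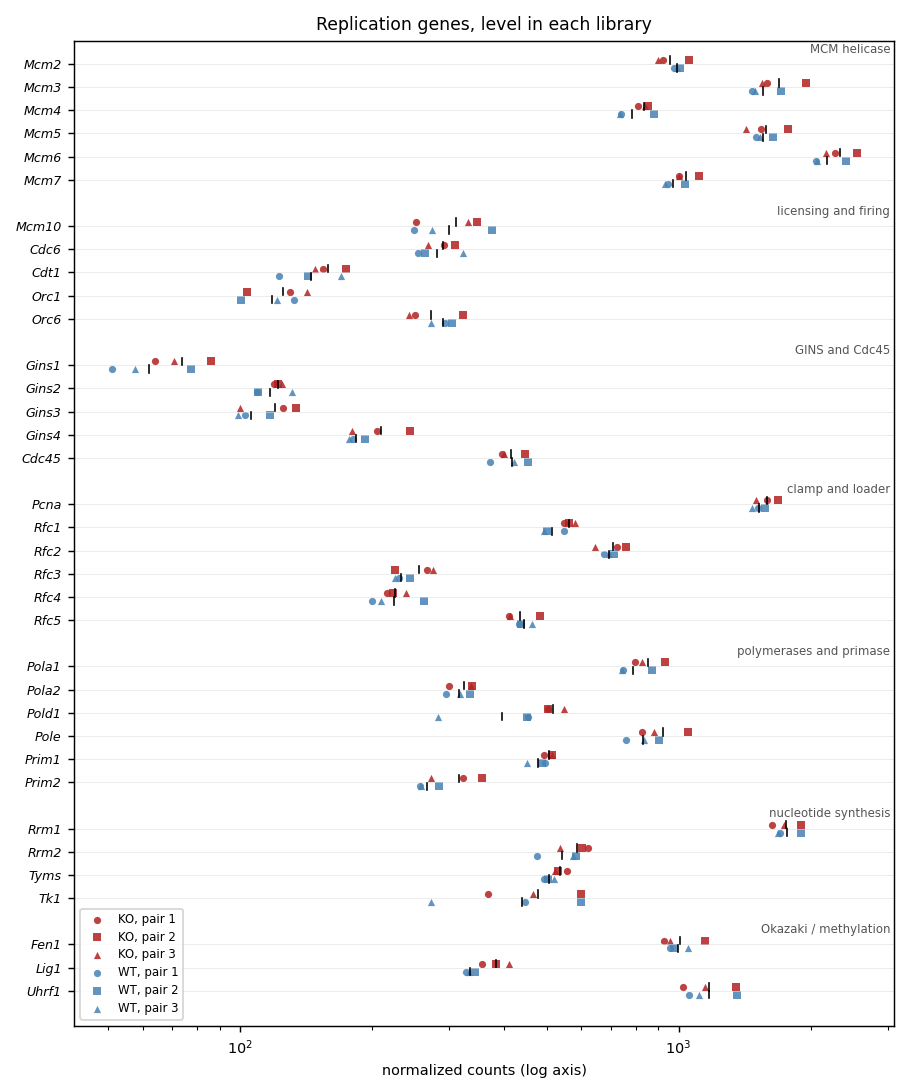
Normalized counts (log axis) of the 35 replication genes in each of the 6 libraries, grouped by role; circles, squares and triangles are pairs 1, 2 and 3, red is KO, blue is WT, and each black tick is the mean of 3 libraries. KO and WT libraries overlap for 31 of the genes, the blue triangles of *Pold1* (283) and *Tk1* (273) lie apart to the left, and for the MCM genes the squares of pair 2 lie to the right in both genotypes.

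The MCM ring, the motor that unwinds DNA, is built from Mcm2 to Mcm7, and 5 of its 6 genes had a log2 fold change above 0. *Mcm6* (ENSMUSG00000026355, chromosome 1, 128331590 to 128359664, minus strand, GRCm38) had 2271, 2554 and 2170 normalized counts in KO libraries 1 to 3 and 2058, 2405 and 2065 in the WT libraries. The KO library was higher in each pair, but the groups overlapped, since WT library 2 exceeded KO libraries 1 and 3 (log2 fold change 0.10, SE 0.06). *Mcm7* had 1004, 1114 and 1002 normalized counts in KO and 945, 1034 and 933 in WT libraries. Its pair ratios were the most even of the 35 genes, with an SD of 0.01 on the log2 scale around a log2 fold change of 0.10. The *Mcm7* gene also holds *Mir25*, *Mir93* and *Mir106b* on the same strand. *Mcm3* had 1593, 1949 and 1550 normalized counts in KO libraries and 1472, 1716 and 1497 in WT libraries, again with the KO library ahead in every pair. *Mcm2* went the other way, with a log2 fold change of -0.05 (95% interval -0.22 to 0.11), and was lower in the KO library of pairs 1 and 3 only. *Mcm4* and *Mcm5* had log2 fold changes of 0.09 and 0.02, with KO ahead in 2 of 3 pairs each. The summed level of the ring was 8146, 9303 and 7883 normalized counts in KO and 7692, 8678 and 7754 in WT libraries.

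The MCM genes are textbook E2F targets, and E2F-type letters stood before the start sites of *Mcm6* and *Mcm5*, whose promoters are shown because their matches all lie upstream of the start site. The 250 bases before each RefSeq start site (GRCm38.p6) are given 5′ to 3′ on the strand of the gene, with the matches in capitals. In *Mcm6* the first 2 of 3 matches overlap and lie 110 and 106 bases before the start site, and the last lies 47 bases before it. In *Mcm5* the 2 matches overlap and lie 153 and 149 bases before it.
Mcm6, chr1:128359706-128359955, minus strand: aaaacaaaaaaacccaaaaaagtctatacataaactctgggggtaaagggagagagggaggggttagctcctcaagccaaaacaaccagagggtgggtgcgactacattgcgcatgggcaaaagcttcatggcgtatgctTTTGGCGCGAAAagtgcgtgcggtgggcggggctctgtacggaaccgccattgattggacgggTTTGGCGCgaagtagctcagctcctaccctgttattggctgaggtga
Mcm5, chr8:75109259-75109508, plus strand: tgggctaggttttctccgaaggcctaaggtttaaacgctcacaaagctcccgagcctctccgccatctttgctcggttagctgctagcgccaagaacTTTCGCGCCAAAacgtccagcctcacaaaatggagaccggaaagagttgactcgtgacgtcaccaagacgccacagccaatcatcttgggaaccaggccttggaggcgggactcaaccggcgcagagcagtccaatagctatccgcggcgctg

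The origin licensing and firing factors prepare origins for the ring, and none of these 5 genes had a KO library ahead in all 3 pairs. *Cdt1*, which loads the ring together with Cdc6, had 155, 174 and 148 normalized counts in KO and 123, 143 and 170 in WT libraries. The KO library was higher in pairs 1 and 2 and lower in pair 3, with a log2 fold change of 0.14 (SE 0.14), and *Cdt1* overlaps the protein-coding *Gm20388* on its own strand, so that its counts are less certain. *Cdc6* behaved alike, with 293, 310 and 269 normalized counts in KO and 255, 265 and 323 in WT libraries. *Orc6* and *Orc1*, subunits of the origin recognition complex, had log2 fold changes of -0.10 (95% interval -0.33 to 0.13) and 0.08 (-0.21 to 0.37). *Mcm10*, a factor that helps to activate the loaded helicase, had 252, 348 and 331 normalized counts in KO and 249, 376 and 275 in WT libraries, so that it differed more between pairs than between genotypes.

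Cdc45 and the GINS complex turn the loaded ring into the moving helicase. *Gins1*, the gene with the fewest counts of the 35, had 64.2, 85.8 and 70.8 normalized counts in KO and 51.0, 77.4 and 57.8 in WT libraries. The KO library was higher in each pair, for a log2 fold change of 0.25 with a 95% interval of -0.11 to 0.61, and the counting error alone of a pair ratio of this gene was 0.25 on the log2 scale. *Gins4* had 206, 244 and 180 normalized counts in KO and 181, 192 and 177 in WT libraries (log2 fold change 0.18, SE 0.10). *Gins3* also had KO ahead in all 3 pairs (0.17, SE 0.12), *Gins2* in pairs 1 and 2 (0.07, SE 0.12). *Cdc45* was level, with means of 414 ± 27.9 in KO and 416 ± 41.2 in WT libraries (SD, n = 3).

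The sliding clamp and its loader had the most abundant member per length of exon. *Pcna*, whose protein rings the DNA and holds the polymerases, had 1587, 1683 and 1504 normalized counts in KO and 1520, 1575 and 1470 in WT libraries. The KO library was higher in each pair by a small amount, with a log2 fold change of 0.06 (95% interval -0.08 to 0.20). *Rfc1*, the large subunit of the loader, had 549, 563 and 579 normalized counts in KO and 548, 501 and 494 in WT libraries, and the groups did not overlap, although KO library 1 and WT library 1 were nearly equal. *Rfc2*, *Rfc3*, *Rfc4* and *Rfc5*, the small subunits, had log2 fold changes from -0.03 to 0.13, and in none of them was the KO library ahead in all 3 pairs.

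Among the polymerases and primase all 6 genes had a log2 fold change above 0, and in 5 of them the KO library was ahead in every pair. *Pold1* (ENSMUSG00000038644, chromosome 7, 44532746 to 44548849, minus strand), the catalytic subunit of the lagging strand polymerase delta, had 505, 503 and 548 normalized counts in KO and 454, 451 and 283 in WT libraries. The groups did not overlap, but WT library 3 stood far below the others. Its log2 fold change was 0.42 (SE 0.16, unadjusted *p* = 0.039, adjusted *p* = 0.970), the largest of the 35, and it was 0.16 without pair 3. *Prim2*, the large primase subunit, had 322, 356 and 272 normalized counts in KO and 257, 284 and 259 in WT libraries. KO exceeded WT in each pair, and the groups overlapped only through KO library 3 (log2 fold change 0.24, SE 0.09, unadjusted *p* = 0.038, adjusted *p* = 0.970). *Pole*, the catalytic subunit of the leading strand polymerase, had 827, 1053 and 881 normalized counts in KO and 758, 901 and 836 in WT libraries (log2 fold change 0.14, SE 0.07). *Pola1*, *Pola2* and *Prim1*, the rest of the primase complex with polymerase alpha, had log2 fold changes of 0.11, 0.04 and 0.09.

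**Figure D2:**
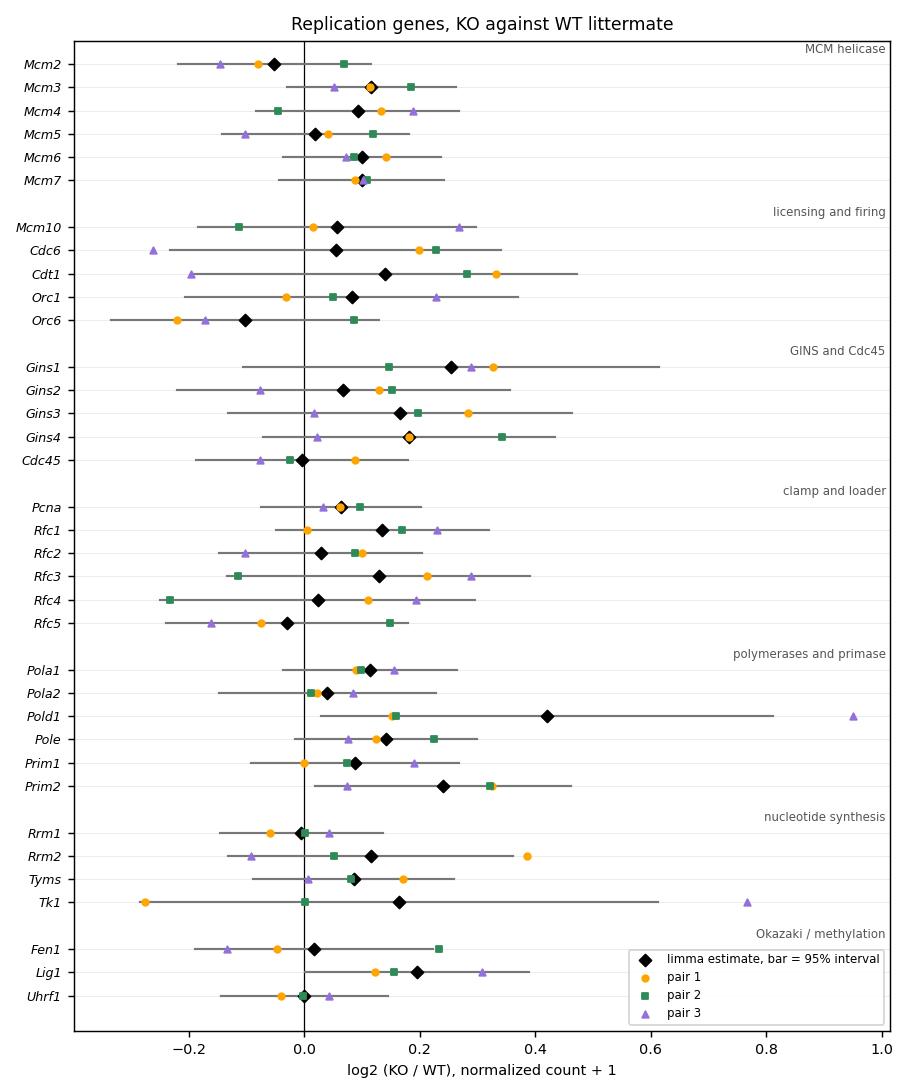
Log2 ratio of KO to WT (normalized count + 1) for the 35 replication genes; black diamonds are the limma estimates with their 95% intervals as grey bars, and coloured points are the 3 littermate pairs. Most estimates lie between -0.10 and 0.25, and the point of pair 3 stands far to the right for *Pold1* (0.95) and *Tk1* (0.77).

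Among the enzymes of nucleotide synthesis, *Tk1*, the thymidine kinase of the salvage pathway, varied most of the 35 genes. It had 368, 599 and 466 normalized counts in KO and 446, 598 and 273 in WT libraries. The KO library was lower in pair 1, nearly equal in pair 2 and higher in pair 3, and the log2 fold change of 0.16 (95% interval -0.29 to 0.61) became -0.14 without pair 3. *Rrm2*, the regulated small subunit of ribonucleotide reductase, had 621, 603 and 538 normalized counts in KO and 475, 582 and 573 in WT libraries, with a difference mainly in pair 1. *Rrm1*, the large subunit, was level (1758 ± 135 in KO and 1763 ± 120 in WT, SD, n = 3). *Tyms*, which makes thymidylate, had 556, 532 and 522 normalized counts in KO and 494, 503 and 520 in WT libraries. The *Tyms* groups were just apart, and its log2 fold change was 0.09 (95% interval -0.09 to 0.26).

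*Lig1*, the ligase that joins Okazaki fragments, had 357, 383 and 411 normalized counts in KO and 328, 344 and 332 in WT libraries. All KO libraries were above all WT libraries (log2 fold change 0.19, SE 0.08, unadjusted *p* = 0.0499, adjusted *p* = 0.970). *Fen1*, the flap endonuclease of the same step, had 928, 1147 and 956 normalized counts in KO and 959, 975 and 1050 in WT libraries, with the KO library ahead in pair 2 only. *Uhrf1*, which guides maintenance methylation to new DNA, had 1025, 1354 and 1148 normalized counts in KO and 1054, 1357 and 1114 in WT libraries. The *Uhrf1* values of a pair were close to each other in all 3 pairs, and far apart between pairs. *Lig1*, *Pold1*, *Rfc1* and *Tyms* were the 4 genes of the 35 (11.4%) with all KO above all WT libraries, compared with 3.39% of all genes, and 0 of the 35 had all KO libraries below. In the related lists described below, all KO were above all WT libraries in 6 of 18 checkpoint genes (33.3%) and 4 of 42 other replication genes (9.52%). The same held for 2 of 29 G1/S genes, 1 of 34 mitosis genes and 0 of 27 other nucleotide synthesis genes.

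The precision of these values limits what could be seen. For 32 of the 35 genes the 95% interval of the log2 fold change lay within ±0.5, and the others were *Gins1*, *Pold1* and *Tk1*. The bounds of all 35 intervals spanned 0.793-fold to 1.76-fold. The SD of the 3 pair ratios had a median of 0.12 on the log2 scale, and the counting error of a pair ratio had a median of 0.10. In 29 of the 35 genes the spread between pairs was under 2 times the counting error. It was no larger than the counting error itself in only 13. The 3 genes with an unadjusted *p* under 0.05 were *Pold1*, *Prim2* and *Lig1*. Beside *Mcm7* and *Cdt1*, the genes *Rfc1*, *Pola1*, *Pold1*, *Pole*, *Prim2* and *Rrm1* overlap other annotated genes on their own strand, none of them protein-coding. The effect of these overlaps on the counts was not tested.

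The pairs were compared next. In 21 of the 35 genes (60.0%), pair 2 held the highest of the 3 KO libraries and also the highest of the 3 WT libraries, compared with 16.4% of all genes. The same held of pair 1 for 0 genes and of pair 3 for 1 gene. Related lists had such shares too, with pair 2 highest in 17 of 27 other nucleotide synthesis genes (63.0%), 17 of 34 mitosis genes, 9 of 18 checkpoint genes, 16 of 42 other replication genes (38.1%) and 4 of 29 genes of the G1/S list (13.8%). All 6 MCM genes and 4 of the 5 genes of GINS and Cdc45 were among the 21. The summed level of the 35 genes was 22623, 25746 and 22702 normalized counts in KO libraries 1 to 3 and 21633, 24139 and 21793 in the WT libraries, and their share of all fragments was 0.360%, 0.411% and 0.368% in KO and 0.343%, 0.380% and 0.336% in WT. Pair 2 was also the pair with the lowest summed level of the plasma cell markers in both genotypes (13025 in KO and 13181 in WT). The part of plasma cells in this difference was not tested.

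**Figure D3:**
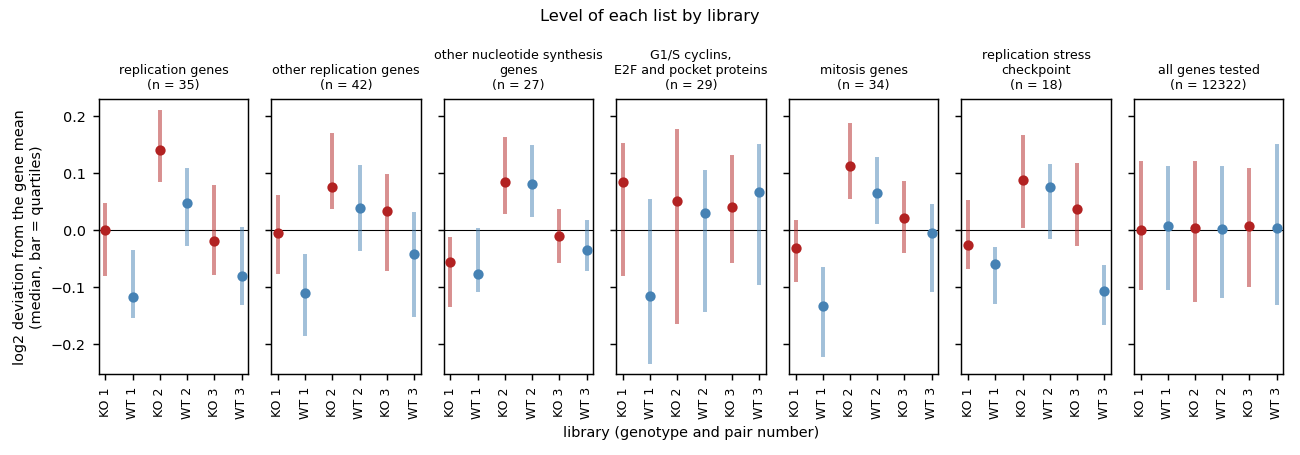
Log2 deviation of each library from the mean of the gene over the 6 libraries, as the median (point) and quartiles (bar) over the genes of each list, for KO (red) and WT (blue) by pair. The replication genes have medians of 0.14 in KO library 2 and 0.05 in WT library 2, and of -0.12 and -0.08 in WT libraries 1 and 3, while the medians of all genes lie near 0 in all 6 libraries.

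Tested gene by gene, the difference between the 3 batches passed the threshold in 0 of the 35 genes (limma F test, smallest adjusted *p* 0.144 for *Uhrf1*), where 1.15% of all genes passed. At an unadjusted *p* under 0.05 there were 7 of the 35, compared with 12.5% of all genes. edgeR and DESeq2 on fragments also called 0 of the 35. Without pair 3, *Mcm10*, *Tk1* and *Uhrf1* passed this test, beside 728 of all 12322 genes, and without pair 1 *Tk1* did, beside 329.

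Levels of different genes were compared per kb of exon, the exons of all transcripts of a gene in Gencode vM21 being merged. *Pcna* was the highest of the 35, with 649 ± 31.7 normalized counts per kb (SD over the 6 libraries), followed by *Mcm6* (483 ± 42.2), *Mcm3* (434 ± 47.6), *Fen1* (414 ± 33.8) and *Mcm5* (393 ± 30.8). The range of *Pcna* (612 to 701) lay above that of *Mcm6* (441 to 547), while those of *Mcm6*, *Mcm3* (392 to 520) and *Mcm5* (357 to 445) overlapped. The MCM proteins form a ring of equal parts, but their genes fell into 3 levels, with *Mcm7* (227 ± 14.8) and *Mcm4* (225 ± 16.6) in the middle and *Mcm2* lowest (140 ± 8.3), a ratio of 3.45 between *Mcm6* and *Mcm2*. The same was seen in GINS, where *Gins4* (146 ± 18.9) stood above *Gins1* (44.7 ± 8.4), *Gins3* (41.7 ± 5.5) and *Gins2* (29.2 ± 2.1). The loader subunits lay between 67.8 (*Rfc3*) and 147 (*Rfc4*), and the origin factors between 35.1 (*Orc1*) and 114 (*Orc6*). Merged exons count bases that the main transcript may not use, which lowers the value per kb of genes with long alternative transcripts, and *Pole* and *Rrm1* had the longest merged exons. Within the ring *Mcm2* had the longest, 6956 bases. Its place as the lowest rests on that length, since its normalized counts without regard to length (mean 975) were above those of *Mcm4* (809). In GINS the same holds of *Gins2*, with 4097 bases. The mean of *Gins2*, 119 normalized counts, was above those of *Gins3* (113) and *Gins1* (67.8), while *Gins4* was highest by counts too (197).

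**Figure D4:**
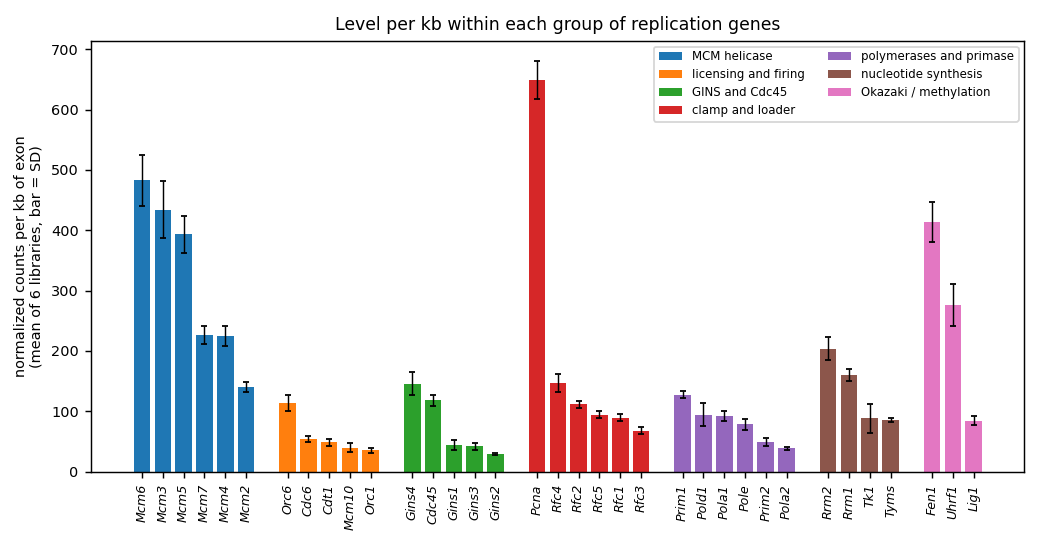
Normalized counts per kb of merged exon (mean of the 6 libraries, bar = SD) of the 35 replication genes, ordered by level within each role. *Pcna* is the highest, at 649, and within the MCM ring the level ranges from 483 (*Mcm6*) to 140 (*Mcm2*).

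Other genes of the cell cycle were looked at in 5 lists. None of these lists had a gene called higher or lower by limma in KO against WT, and the quoted genes are those with the smallest unadjusted *p* of each list, given as values and not as changed. Among 42 other replication genes the median log2 fold change was 0.08, with 31 above 0. *Dna2*, a nuclease and helicase, had 198, 214 and 190 normalized counts in KO and 139, 174 and 167 in WT libraries, so that the groups were apart. *Chaf1a*, a chromatin assembly factor, and *Recql4*, a helicase, had log2 fold changes of 0.23 and 0.28. Among 27 other nucleotide synthesis genes the median was 0.01, with 16 above 0. *Rrm2b*, the p53-inducible small subunit of ribonucleotide reductase, had 170, 154 and 168 normalized counts in KO and 200, 178 and 235 in WT libraries, and all KO libraries were below all WT libraries. *Dctd* and *Ctps2* had log2 fold changes of -0.23 and -0.15.

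Of 30 genes of the G1/S cyclins, E2F and pocket proteins 29 were tested, with a median log2 fold change of 0.03 and 21 above 0. *E2f1*, an activator of replication genes, had 124, 131 and 126 normalized counts in KO and 87.8, 120 and 91.5 in WT libraries (log2 fold change 0.36, SE 0.13, unadjusted *p* = 0.035, adjusted *p* = 0.970). *Tfdp2*, which encodes a partner of E2F proteins, had 186, 179 and 183 in KO and 152, 150 and 157 in WT libraries. In both genes all KO libraries were above all WT libraries. *Ccnd3*, a D-type cyclin, had a log2 fold change of 0.18. Between batches 1 gene of this list passed, and 0 genes of the other lists did. This was *Myb*, a transcription factor of dividing progenitors, which is named here after its values were seen, with 266, 527 and 399 normalized counts in KO and 268, 500 and 391 in WT libraries (limma F test, adjusted *p* = 0.018).

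The 34 mitosis genes, which act after S phase, had a median log2 fold change of 0.04, with 24 above 0 and 13 higher in the KO library of all 3 pairs. *Ect2*, needed for cytokinesis, had 450, 412 and 414 normalized counts in KO and 365, 348 and 332 in WT libraries (log2 fold change 0.29, SE 0.07, adjusted *p* = 0.849). *Cenpe*, a kinetochore motor, and *Top2a*, which untangles chromosomes, had log2 fold changes of 0.23 and 0.11. The 18 genes of the replication stress checkpoint had a median of 0.09, with 15 above 0 and 10 higher in KO in all 3 pairs. *Brca2*, which acts in homologous recombination, had 397, 464 and 410 normalized counts in KO and 349, 389 and 317 in WT libraries (log2 fold change 0.27, SE 0.08, adjusted *p* = 0.926), and *Exo1* and *Hus1* had log2 fold changes of 0.25 and 0.24. KO was higher in all 3 pairs for 13 of 42 other replication genes, 5 of 27 other nucleotide synthesis genes and 6 of 29 G1/S genes. It was lower in all 3 pairs for 2, 5 and 0 of these, and for 1 mitosis gene and 1 checkpoint gene. Of all genes, 11.7% were higher and 13.1% lower in all 3 pairs. Whether these lists differ from the replication genes was not tested.

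The promoters of the replication genes were searched for the letters of 3 motifs on both strands, in RefSeq windows from 250 bases before to 50 after each start site (GRCm38.p6). A window was matched for 28 of the 35 genes. *Lig1* had 3 windows, and *Mcm7*, *Uhrf1* and *Fen1* had 2 each. A gene was counted if any of its windows held a match, and positions are those in its window with the most E2F-type matches. For *Lig1* and *Uhrf1* this window began at 13278576 and 56304063, inside the Gencode vM21 genes, which start at 13277283 and 56303321. E2F-type letters were taken as TTTCCCGC, TTTGGCGC, TTTCGCGC or TTTGCCGC, which can overlap each other on opposite strands. They were found in 13 of the 28 genes (46.4%), compared with 704 of all 27025 genes with a window, and 11 of the 19 matches began within 100 bases upstream or in the 50 bases downstream of the start site. By role they were found in 4 of 5 MCM genes, 3 of 5 origin licensing and firing factors and 0 of 4 genes of nucleotide synthesis. CCAAT was found in 18 of the 28 genes (64.3%), compared with 41.1% of all genes. TTTGAA, the letters of the cell cycle homology region that is typical of G2/M genes, was found in 4 of the 28 (14.3%), compared with 20.2% of all genes. In the mitosis genes TTTGAA was found in 20 of 27 (74.1%), E2F-type letters in 1 of 27 (3.70%), and CCAAT in 20 of 27 (74.1%). A match describes the letters of a window and does not show that a factor binds there.

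**Figure D5:**
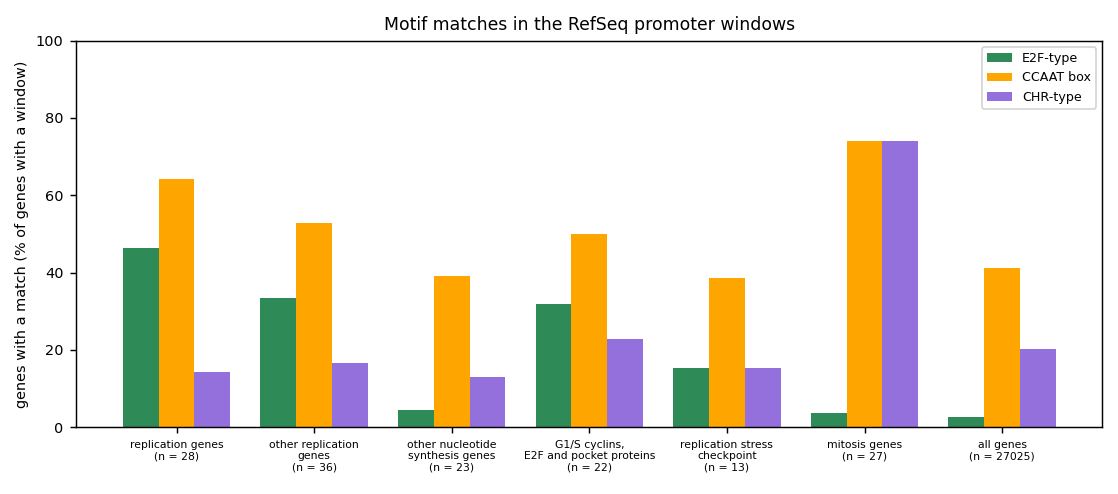
Share of the genes of each list with at least 1 match of a motif in the RefSeq promoter window, as percent of the genes with a window (n under each list). E2F-type matches are in 46.4% of the replication genes and in 704 of all 27025 genes, and the matches of the cell cycle homology region (CHR-type) are in 74.1% of the mitosis genes.

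For each of the other 11 genes with E2F-type letters 1 match is shown to let the flanks be compared, with up to 10 bases on each side, 5′ to 3′ on the strand of the gene and with matched letters in capitals. The flank of the *Rfc3* match holds its second match, at the start site, and the matches not shown begin 38 bases after the start site of *Mcm3* and 165 bases before that of *Mcm7*. The matches shown for *Mcm3*, *Lig1*, *Pold1*, *Cdt1* and *Mcm7* begin 19, 26, 39, 32 and 16 bases after the start site, and those shown for the other genes begin upstream of it.
Mcm3, chr1:20820276-20820303, minus strand: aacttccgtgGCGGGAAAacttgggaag
Mcm7, chr5:138171850-138171877, minus strand: ggtgacgacgTTTCGCGCcaatttcggt
Orc1, chr4:108579417-108579444, plus strand: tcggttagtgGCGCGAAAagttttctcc
Cdc6, chr11:98908003-98908030, plus strand: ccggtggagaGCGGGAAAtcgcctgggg
Cdt1, chr8:122568037-122568064, plus strand: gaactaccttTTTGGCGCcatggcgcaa
Gins3, chr8:95633508-95633535, plus strand: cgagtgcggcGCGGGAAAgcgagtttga
Rfc3, chr5:151651201-151651228, minus strand: cgtcgcacgcTTTCGCGCtcGCGGGAAA
Pola1, chrX:93632276-93632303, minus strand: tcatcacaggGCGCCAAAtgcactcccg
Pold1, chr7:44548766-44548786, minus strand: gtatcttgtgGCGGGAAAagc
Lig1, chr7:13278842-13278869, plus strand: gccaaagtgcGCGCGAAAtctgtgtggc
Uhrf1, chr17:56304118-56304145, plus strand: ccgagtcgggTTTCGCGCgcccaggcgt

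Beside these letters, the 13 genes with an E2F-type match had a median log2 fold change (KO against WT) of 0.11, from 0.00011 to 0.42, and all 13 were above 0. The 15 genes with a window and no match had a median of 0.04, from -0.10 to 0.16, with 10 above 0. The 7 genes without a window belong to neither set, and their log2 fold changes were above 0 as well. They were 0.25 for *Gins1*, 0.24 for *Prim2*, 0.18 for *Gins4*, 0.14 for *Pole*, 0.09 for *Mcm4*, 0.07 for *Gins2* and 0.03 for *Rfc2*. Over the 11 alternative settings the sign changed in 3 for *Uhrf1*, 2 for *Cdc6* and 1 for *Mcm5*, which have a match. Among genes without a match it changed in 3 for *Cdc45* and in 2 each for *Rfc4* and *Rrm1*. It changed in 1 each for *Fen1*, *Mcm10*, *Rfc5*, *Rrm2* and *Tk1*. Of the genes without a window, *Rfc2* changed sign in 2. *Pold1*, the highest, was 0.16 without pair 3. The ranges overlapped, no gene of either set passed the test, and the difference between the sets was not tested.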

How the data were processed

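RNA of 6 libraries, 3 KO and 3 WT, was ribodepleted, made into strand-specific libraries and sequenced. The authors trimmed the reads with cutadapt 1.18, aligned them to GRCm38 (mm10 in the submitters' processing notes) with STAR 2.6.1a, counted fragments on exons strand-specifically with featureCounts (Subread 1.6.3) and scaled the libraries with the size factors of DESeq2. What was deposited is thus a signal in normalized counts, for 54446 genes, of which 54409 matched Gencode vM21, from which positions and exon lengths were taken. The authors counted with another Gencode release, so exons may differ in a few genes. Such scaling cannot show a change shared by most transcripts. Whole fragments were recovered from the steps of each library (100% of the values above 0 whole within 0.001). Depth was 5393558 to 6793520 fragments, and a count of 3 fragments corresponded to 2.72 to 3.61 normalized counts.

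The test was limma 3.58.1 in R 4.3.3, with lmFit and a trended eBayes on log2(normalized count + 1), condition and batch in the model, over 12322 genes with a mean of at least 10, two-sided, with Benjamini-Hochberg adjustment over all genes and a threshold of 0.05. Fold changes are on this log2(value + 1) scale. Batches were compared with the F test of the same fit. Libraries with the same number come from littermates per the methods of the study, and the libraries of a pair deviated together from their group means (correlations 0.328, 0.685 and 0.170). No pair of libraries was a duplicate. edgeR 4.0.16 and DESeq2 1.42.0 on the recovered fragments were alternatives, beside other pseudocounts, filters and scalings. The fits were tested on simulated data whose changes were larger than the fold changes of the replication genes. That test does not show how well changes as small as these would be found.

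The replication genes, the pathway lists and the markers were chosen with earlier results of these data known. A gene of the marker lists is counted but not named here. The text names all 35 genes, *Tent5c* and, from each pathway list, the genes that passed or else the 3 with the smallest unadjusted *p*. Promoter sequences are from RefSeq, GRCm38.p6.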

Additional observations from a re-analysis of the deposited data

How the results depend on the processing

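No replication gene was called in KO against WT in any of the 11 alternative settings, and the median log2 fold change of the 35 genes stayed between 0.07 and 0.10. With DESeq2 on fragments 22 genes of the whole table were lower and 1 higher, and without 1 pair there were 0 to 168 lower and 0 to 3 higher, the most without replicate 1. The cause was not tested. Between batches, leaving out 1 pair gave 0 to 3 replication genes, *Tk1* without replicate 1 and *Mcm10*, *Tk1* and *Uhrf1* without replicate 3, where 329 and 728 of all genes were called, and 5 without replicate 2. The number of replication genes with the KO library ahead in every pair was 15, and 14 to 15 in other scalings and with pseudocount 5, and 19 to 21 without 1 pair, where only 2 pairs enter the count. Filters and tests do not change this number. The paired fit is the main one, and with no replicate block the calls among the replication genes were 0, the median was 0.09, and batches could not be compared.

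Over the single genes in these settings, 365 values kept their sign and 20 changed it, none of them past the threshold. With TMM scaling *Cdc45* and *Rrm1* became 0.0052 and 0.0049 on the log2 scale. *Uhrf1* became -0.0028 with scaling without immunoglobulin genes and -0.00051 with edgeR. Leaving out 1 pair, the log2 fold change ranged from -0.051 to 0.032 for *Cdc45*, -0.033 to 0.21 for *Cdc6*, -0.091 to 0.093 for *Fen1*, -0.049 to 0.14 for *Mcm10*, -0.031 to 0.079 for *Mcm5*, -0.0077 to 0.094 for *Rfc2*, -0.062 to 0.15 for *Rfc4*, -0.12 to 0.036 for *Rfc5*, -0.029 to 0.022 for *Rrm1*, -0.021 to 0.22 for *Rrm2*, -0.14 to 0.38 for *Tk1* and -0.022 to 0.020 for *Uhrf1*. Among genes that kept their sign it ranged from 0.043 to 0.31 for *Cdt1*, 0.049 to 0.25 for *Rfc3*, 0.0088 to 0.14 for *Orc1*, 0.044 to 0.16 for *Mcm4*, 0.16 to 0.55 for *Pold1* and -0.20 to -0.043 for *Orc6*. The smallest adjusted *p* of a replication gene was 0.191, for *Pold1* without replicate 1. Depth limits the precision of *Gins1* most, at 48 fragments in its lowest library.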
